A study of Mus musculus with 9 samples.

Results

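The 10 integrin subunits Itgam, Itgal, Itgb2, Itgav, Itgb5, Itgb3, Itgb1, Itga1, Itga4 and Itga6 were followed in mouse cells of glioblastoma (GBM) xenografts and of a tumor-free mouse brain. They were taken as a fixed list of symbols, chosen with earlier results of these data known, from 33274 gene symbols listed in at least 1 sample. All 10 were listed in every one of the 9 samples. Each sample was a Drop-seq library, a droplet method that counts the messenger RNA molecules of single cells by unique molecular identifiers (UMIs) read near the 3′ end. All mice were of the nude strain, which is athymic and largely lacks mature T lymphocytes, and their age was not given. One library (Nu-NB) came from a nude mouse brain that carried no tumor. The other libraries came from patient-derived orthotopic xenografts (PDOXs), human GBM organoids grown in the mouse brain, from which the mouse cells, the tumor microenvironment (TME), were isolated. The 7 PDOXs labelled untreated were P3, P8, P13, T16, T101, T192 and T233, the last pair being derived from 1 patient. One further PDOX, P3TMZ, was the P3 model after temozolomide, an alkylating drug. Per the study's methods the P3 controls received the vehicle by gavage, but whether the P3 library, labelled untreated, is such a control is not given. Nu-NB and P8 were sorted by flow cytometry and the others were separated magnetically, so the Nu-NB comparison and the separation method cannot be told apart except through P8.

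Integrins are heterodimeric receptors in which 1 α and 1 β subunit bind extracellular matrix or counter-receptors outside the cell and, through talin and kindlin, the actin cytoskeleton inside it. Leukocytes carry β2 integrins: Itgam (CD11b) and Itgal (CD11a) each pair with Itgb2 (CD18), and CD11b is the surface marker most used for microglia and macrophages. Itgav pairs with several β subunits, including Itgb3, Itgb5 and Itgb1, binds vitronectin and other ligands with an Arg-Gly-Asp motif, and can release active TGF-β. Itgb1 pairs with the largest set of α subunits, among them Itga1 (collagen), Itga4 (Vcam1 and fibronectin) and Itga6 (laminin), and anchors vascular cells to their basement membrane.

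On GRCm38, Itgam (chr7:128062640-128118491) and Itgal (chr7:127296260-127335138) lie on chromosome 7, and Itgav (chr2:83724397-83806916), Itga4 (chr2:79255426-79333123) and Itga6 (chr2:71745616-71858416) on chromosome 2. Itgb2 lies at chr10:77530252-77565708, Itgb1 at chr8:128685654-128733200, Itgb5 at chr16:33829665-33949338 and Itgb3 at chr11:104608000-104670476, and these genes are all on the plus strand. Itga1 (chr13:114953096-115101964) is on the minus strand. RefSeq promoter sequences (GRCm38.p6) were matched for 6 of the 10 genes. The 250 bases before the start are shown for 2 genes that were highest in myeloid-like cells, Itgam (chr7:128062390-128062639) and Itgb5 (chr16:33829415-33829664), and for 2 that were highest in mural-like cells, Itgb1 (chr8:128685404-128685653) and Itga1 (chr13:115101965-115102214, minus strand). Each runs 5′ to 3′ on the gene's strand, with GAGGAA or its reverse complement TTCCTC in capitals, letters within the site read by the myeloid transcription factor PU.1.
Itgam: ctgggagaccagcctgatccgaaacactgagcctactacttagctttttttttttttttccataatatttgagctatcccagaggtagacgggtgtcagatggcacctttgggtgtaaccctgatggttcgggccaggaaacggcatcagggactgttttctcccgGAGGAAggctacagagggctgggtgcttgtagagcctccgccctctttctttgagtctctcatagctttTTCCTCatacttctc
Itgb5: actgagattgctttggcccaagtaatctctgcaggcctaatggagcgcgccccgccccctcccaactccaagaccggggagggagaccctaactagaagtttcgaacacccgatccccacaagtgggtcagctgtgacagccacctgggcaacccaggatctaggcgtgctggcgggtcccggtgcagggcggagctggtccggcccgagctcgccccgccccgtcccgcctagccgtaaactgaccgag
Itgb1: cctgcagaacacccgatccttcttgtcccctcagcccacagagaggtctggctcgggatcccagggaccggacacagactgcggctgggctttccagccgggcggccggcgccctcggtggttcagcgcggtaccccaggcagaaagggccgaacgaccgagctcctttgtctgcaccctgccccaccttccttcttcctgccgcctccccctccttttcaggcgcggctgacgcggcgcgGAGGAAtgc
Itga1: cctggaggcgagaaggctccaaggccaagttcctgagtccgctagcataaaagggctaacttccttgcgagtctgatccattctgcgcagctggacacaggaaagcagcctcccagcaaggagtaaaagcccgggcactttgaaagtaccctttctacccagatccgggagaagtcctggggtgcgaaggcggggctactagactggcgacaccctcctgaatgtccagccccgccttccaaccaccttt
Itgam held the letters on each strand, at 84 and 15 bases before the start, and Itgb1 held them once, at 9 bases. Itgb5 and Itga1 held none in this window. Over both strands, 3 of the 6 matched genes (Itgam, Itgav and Itgb1) held them, against 7639 of 32851 promoters of the same length (23.3%). The letters were thus found both in a gene highest in myeloid-like cells and in one highest in mural-like cells.

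After filtering, 14622 of 33998 barcodes were kept, 722 to 2770 per sample, and the median depth of a kept cell lay between 513.5 and 1272.5 UMIs. Cells were clustered without integrin genes and clusters were named from marker lists, and the names carry "-like" for that reason. The classes used here were myeloid-like (4652 cells), astrocyte-like (2933), endothelial-like (2222), oligodendrocyte precursor (OPC)-like (987) and mural-like (474). Levels are UMIs per 1000000 (CPM) of the UMIs summed over a class in a sample with at least 10 cells. They are compared within a gene, not between genes. Shares are of cells with at least 1 UMI of the subunit after thinning to 500 UMIs, so that they are set at equal depth. Shallower cells were left out of the shares: 327 of 692 myeloid-like cells of Nu-NB and 125 of 270 of P3 remained. With 1 Nu-NB library, 1 animal or preparation stands for that side, and intervals cover counting error only. At most 11 cell barcodes were shared between any pair of libraries.

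**Figure D1:**
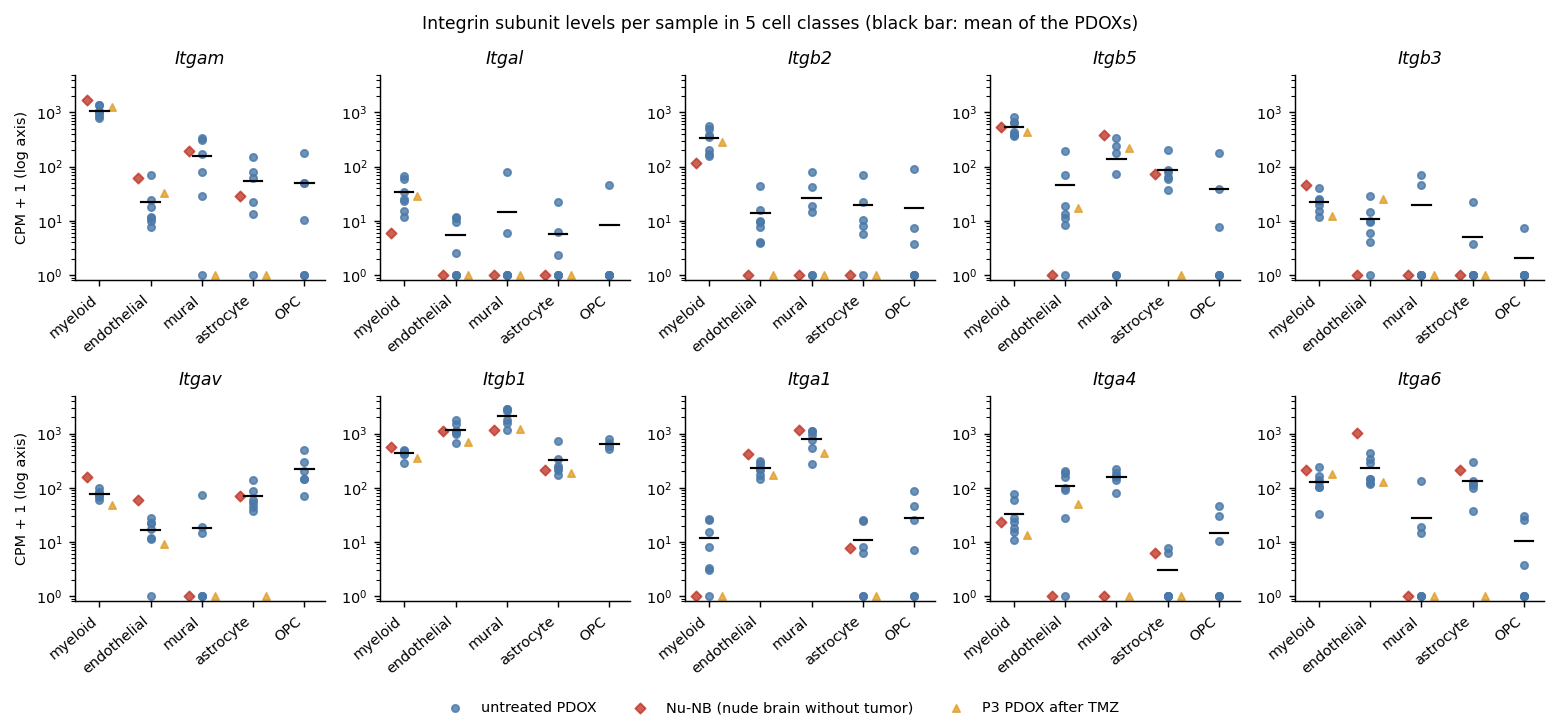
Level of each integrin subunit (CPM + 1, log axis) in 5 cell classes, where each point is 1 sample with at least 10 cells of the class, PDOXs, Nu-NB and P3TMZ being marked apart, and black bars are means of the PDOXs. Itgam and Itgb2 sit highest in myeloid-like cells, Itgb1 and Itga1 in mural-like and then endothelial-like cells, and Itgav in OPC-like cells.

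The β2 integrins were found at their highest in myeloid-like cells. Itgam in myeloid-like cells of PDOXs ran from 777 CPM (T101) through a median of 1008 to 1394 CPM (T192), a mean of 1069 ± 240 (SD, n = 7), and stood at 1711 CPM in Nu-NB. At equal depth, 33.5% of myeloid-like PDOX cells carried an Itgam UMI (median, range 23.7% to 44.3%), so that CD11b mRNA was seen in a minority of the cells at 500 UMIs. In endothelial-like cells Itgam lay between 6.79 and 69.6 CPM, below the myeloid-like range in every PDOX. Itgb2 in myeloid-like cells ran from 158 CPM (P13) through a median of 346 to 556 CPM (T192), a mean of 330 ± 160 (SD, n = 7), while Nu-NB had 114 CPM. Its share at equal depth was 11.7% (median, range 6.75% to 19.2%). Itgb2 had 17 UMIs over all endothelial-like, 26 over all astrocyte-like and 28 over all mural-like PDOX cells. It was higher in choroid plexus-like cells (mean 139 CPM, n = 5, up to 336 CPM in P3) and ciliated ependymal-like cells (82.2 CPM, n = 3), whose clusters also met the myeloid marker list. Itgal, the α subunit of LFA-1, was sparse: it ran from 10.7 CPM (P3) through 24.0 to 67.4 CPM (T192), from 3 to 174 UMIs. In Nu-NB it had 2 UMIs (5.05 CPM), and 0 of 327 cells thinned to 500 UMIs carried one, which allows a share of up to 0.917%.

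Of the subunits that share αv, Itgb5 was mainly myeloid, Itgav reached its highest level in OPC-like cells, and Itgb3 was low in every class. Itgb5 in myeloid-like cells ran from 365 CPM (P3) through 428 to 820 CPM (T192), a mean of 528 ± 180 (SD, n = 7). Nu-NB, at 540 CPM, lay inside that range. Itgb5 was also present in mural-like cells (mean 140 ± 140, SD, n = 6) and astrocyte-like cells (86.9 ± 57.8, SD, n = 6), at levels that varied as much as their own mean in the mural-like class. Its mean was higher in ciliated ependymal-like (315 CPM, n = 3) and choroid plexus-like cells (274 CPM, n = 5), whose clusters also met the myeloid marker list, and Itgam stood there at 747 and 470.5 CPM. Itgav in OPC-like cells ran from 68.5 CPM (T16) through 171 to 489 CPM (T192), a mean of 223 ± 151 (SD, n = 6). Its share at equal depth was 10.1% of OPC-like cells (median, range 2.50% to 18.8%), against 3.16% of myeloid-like and 2.95% of astrocyte-like cells. P8 held 601 of the OPC-like cells and 220 of the 254 Itgav UMIs of that class, at 298 CPM. Nu-NB had 5 OPC-like cells and gave no value. Itgb3, which pairs with αIIb in platelets and with αv in growing vessels, averaged 21.7 ± 9.16 CPM in myeloid-like cells (SD, n = 7), and its share at equal depth was 0.595% (median). In endothelial-like cells P13 alone gave 38 of the 46 Itgb3 UMIs (27.9 CPM).

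Itgb1 and its collagen-binding partner Itga1 were highest in the vascular classes. Itgb1 in mural-like cells, the pericytes and smooth muscle cells around vessels, ran from 1165 CPM (T192) through 2172 to 2813 CPM (T101), a mean of 2112 ± 703 (SD, n = 6). In endothelial-like cells it ran from 675 CPM (T233) through 1121 to 1745 CPM (P13), a mean of 1174 ± 354 (SD, n = 7). Mural-like cells were higher than endothelial-like cells in 6 of 6 PDOXs that held both, although the ranges over PDOXs overlapped. Itga1 showed a wider step in the same order, from 794 ± 334 CPM (SD, n = 6) in mural-like to 229 ± 60.8 CPM (SD, n = 7) in endothelial-like cells. It was again higher in mural-like cells in 6 of 6 PDOXs. In the other classes Itga1 was lower, at 10.7 ± 10.6 CPM in myeloid-like cells (SD, n = 7), 26.8 ± 33.6 CPM in OPC-like cells (SD, n = 6) and 9.87 ± 10.9 CPM in astrocyte-like cells (SD, n = 6). Ciliated ependymal-like cells of P13 had 147 CPM, from 185 UMIs. At equal depth, 53.5% of mural-like cells carried an Itgb1 UMI and 31.5% an Itga1 UMI (medians of 5 PDOXs).

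Itga4 and Itga6 divided the remaining vascular and neural classes differently. Itga4, the α subunit of VLA-4, was at 157 ± 48.8 CPM in mural-like cells (SD, n = 6), where P13 gave 135 of its 162 UMIs. In endothelial-like cells Itga4 ran from 0 in T233 through 97.2 to 202 CPM in P13. Astrocyte-like cells of PDOXs held 6 Itga4 UMIs in all. Itga6 was at 225 ± 128 CPM in endothelial-like (SD, n = 7), 132 ± 88.7 in astrocyte-like (SD, n = 6) and 129 ± 64.1 in myeloid-like cells (SD, n = 7). Endothelial-like cells were above astrocyte-like cells in 6 of 6 PDOXs, with overlapping ranges. OPC-like cells held 7 Itga6 UMIs.

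Ordered by mean level, neighbours among these 5 classes overlapped in their ranges over PDOXs unless stated. Itgam orders as myeloid-like, mural-like, astrocyte-like, OPC-like and endothelial-like. The myeloid-like range of Itgam (777 to 1394 CPM) did not overlap the mural-like one (0 to 343 CPM), nor did that of Itgb2 (158 to 556 against 0 to 77.99 CPM). Itgb5 orders as myeloid-like, mural-like, astrocyte-like, endothelial-like and OPC-like, the myeloid-like range lying above the mural-like one (0 to 343 CPM). Itgb2, Itgal and Itgb3 were highest in myeloid-like cells, and no order is given for their other classes, where 1 or 2 UMIs could set a place. In mural-like cells 1 UMI gave 77.99 CPM of Itgal or of Itgb2 in P3 and 68.5 CPM of Itgb3 in T192. In OPC-like cells of T192, 2 UMIs gave 89.0 CPM of Itgb2. Itgav orders as OPC-like, myeloid-like, astrocyte-like, mural-like and endothelial-like. Itgb1 orders as mural-like, endothelial-like, OPC-like, myeloid-like and astrocyte-like, with the OPC-like range (524 to 795 CPM) above the myeloid-like one (289 to 492 CPM). For Itga1, mural-like cells were followed by endothelial-like cells (142 to 312 CPM) and then, apart from them at 0 to 85.6 CPM, by the OPC-like, myeloid-like and astrocyte-like classes. Itga4 orders as mural-like, endothelial-like and myeloid-like. No order is given for its OPC-like and astrocyte-like values, since 1 UMI gave 44.5 CPM in OPC-like cells of T192. Itga6 orders as endothelial-like, astrocyte-like, myeloid-like, mural-like and OPC-like. The class with the highest share was the same at 300, 500 and 800 UMIs per cell for 9 subunits. Itgb3 was the exception, with endothelial-like cells highest at 300 UMIs.

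Low levels of myeloid transcripts in other classes were set against free RNA and doublets by a ratio: in each sample, the UMIs of the 12 myeloid markers seen in a class were multiplied by the subunit's ratio to those markers in myeloid-like cells. For Itgam, 99 UMIs were seen in astrocyte-like cells of the PDOXs where this ratio gives 99.8, 64 in endothelial-like cells against 73.3, and 128 in mural-like cells against 123. In OPC-like cells Itgam and Itgb2 were below the ratio, at 20 against 32.8 and 5 against 7.97 UMIs. Itgb2 stood at 26 against 27.5 in astrocyte-like cells and 17 against 20.4 in endothelial-like cells. In mural-like cells Itgb2 was at 28 against 20.2, and Itgal in endothelial-like cells at 6 against 2.04. Among cells with no UMI of any myeloid marker, 10 of 764 astrocyte-like (1.31%, exact 95% interval 0.629% to 2.39%) and 7 of 751 endothelial-like cells (0.932%, 0.376% to 1.91%) carried Itgam, and 0 of either carried Itgb2, which allows up to 0.393% and 0.399%. Itgb5 was seen above the ratio in astrocyte-like cells (140 against 50.1 UMIs, 2.79 times) and mural-like cells (137 against 50.3, 2.72 times), but not in OPC-like cells (15 against 14.7). Of the mural-like cells with no such UMI, 8 of 124 (6.45%, exact 95% interval 2.83% to 12.3%) carried Itgb5. Itgav exceeded its ratio 114 times in OPC-like cells (254 against 2.24 UMIs) and 21.0 times in astrocyte-like cells (139 against 6.62). Of the OPC-like cells with no myeloid marker, 39 of 341 (11.4%, 8.26% to 15.3%) carried Itgav, while 0 of the same 341 carried Itgb2, which allows up to 0.880%. Itgb1 and Itga1 in endothelial-like cells stood at 4162 against 29.6 and at 622 against 0.706 UMIs, and Itga4 there at 458 against 1.67. Itga1 was above its ratio in OPC-like cells (23 against 0.320 UMIs) and astrocyte-like cells (28 against 0.819) as well. The myeloid markers summed to 365 to 5620.4 CPM in endothelial-like cells of PDOXs and to 625.2 to 7331 CPM in mural-like cells, with all 12 markers detected in both.

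**Figure D2:**
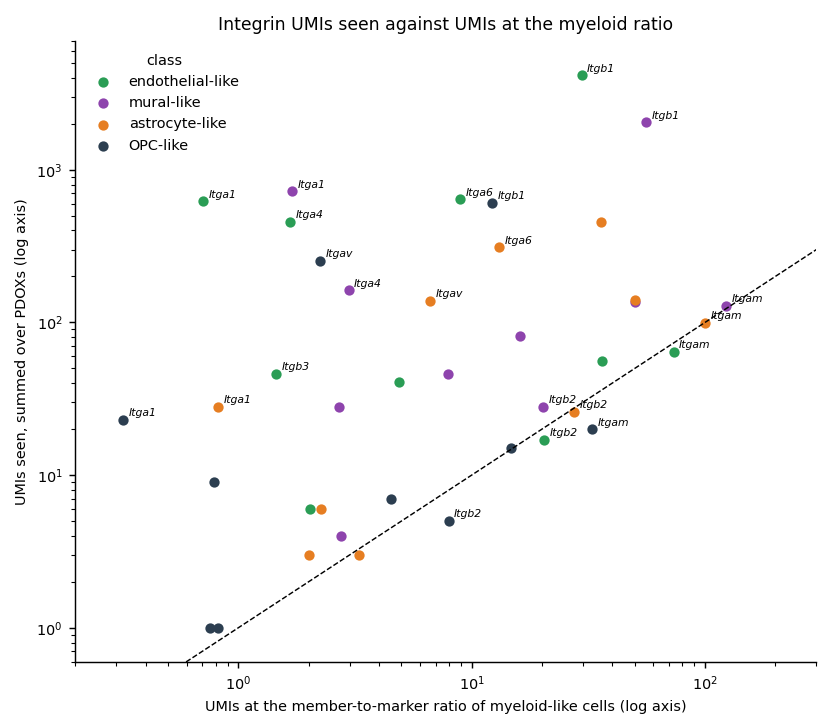
UMIs of each subunit seen in 4 non-myeloid classes, summed over PDOXs (vertical, log axis), against the UMIs that the myeloid markers of the same cells would bring at the myeloid-like ratio (horizontal, log axis), with a dashed line at equality. Itgam and Itgb2 lie near the line (0.610 to 1.39 times it), while Itgb1, Itga1, Itga4 and Itga6 in endothelial-like cells and Itgav in OPC-like cells lie far above it.

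A further question of the study is how TME cells in PDOXs differ from those of the tumor-free brain. In myeloid-like cells, Itgb2 and Itgal were higher in all 7 PDOXs than in Nu-NB, and Itgam, Itgav, Itgb1 and Itgb3 were lower in all 7, but none passed the test. Every PDOX was above Nu-NB for 17% of the 9530 genes tested and below it for 30.8%, so 2 and 4 of 10 subunits are near the background. Genes were tested by edgeR's quasi-likelihood test on summed UMIs, and called at an adjusted p (Benjamini-Hochberg, all genes tested) of at most 0.01 and a log2 fold change of at least 1 in size. Called genes were 0% of those tested in this class. At an unadjusted p under 0.05 there were 1869 (19.6%), and DESeq2 called 249 (2.61%). Of the 10 subunits 0 were called by either tool, and 3 (Itgal, Itgb2 and Itgav) had an unadjusted p under 0.05. P8, sorted by the same method as Nu-NB, is on the same side for each of the 6 subunits. They were taken because all 7 PDOXs were, so its side is no separate check.

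Itgal had the largest log2 fold change among the subunits detected in Nu-NB, 2.94 ± 1.15 (SE; edgeR adjusted p = 0.197), but it rests on 2 UMIs there, and the share at equal depth was 0 in Nu-NB and in P3. Itgb2 had a log2 fold change of 1.77 ± 0.77 (SE; edgeR adjusted p = 0.230, DESeq2 adjusted p = 0.0557). At equal depth its share in P13 (6.75%) was just under that of Nu-NB (7.03%), and the other 6 PDOXs lay above, between 8.23% and 19.2%. Itgam, the main α partner of the β2 chain, had a log2 fold change of -0.47 ± 0.40 (SE; edgeR adjusted p = 0.535), and its difference from that of Itgb2 was not tested. Its share was 53.5% in Nu-NB, above all 7 PDOXs (23.7% to 44.3%). The lowest PDOX for Itgam by CPM was T101 and the highest T192.

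Itgav stood at 154 CPM in Nu-NB and between 57.2 (P3) and 98.4 CPM (P8) in PDOXs, a log2 fold change of -0.81 ± 0.34 (SE; edgeR adjusted p = 0.224). The PDOX mean was 75.6 ± 13.1 CPM (SD, n = 7). Itgb1 was at 560 CPM in Nu-NB and from 289 (T192) through 429 to 492 CPM (T16) in PDOXs, with a log2 fold change of -0.17 ± 0.37 (SE; edgeR adjusted p = 0.839). The gap between Nu-NB and the nearest PDOX for Itgb1 was small against the range among PDOXs. Itgb3 was at 45.4 CPM from 18 UMIs in Nu-NB and between 10.7 and 39.3 CPM in PDOXs. Itgb5, Itga4 and Itga6 had Nu-NB inside the PDOX range, with log2 fold changes of 0.19, 0.69 and -0.45. Itga6 in T101 (32.2 CPM) was well below the next PDOX (100.8 CPM). Itga1 had 0 UMIs in Nu-NB and in P8. The myeloid-like class also carried other cells' transcripts in unequal measure: erythrocyte markers summed to 3424 CPM in Nu-NB and 3.10 to 453 CPM in PDOXs, and choroid plexus markers to 189 CPM in Nu-NB and 368 to 12061 CPM in PDOXs. The 2 neutrophil markers measured summed to 595 CPM in Nu-NB and 132 to 561 CPM in PDOXs, and the 2 B cell markers to 159 and 84.3 to 244 CPM. Endothelial markers summed to 37.8 CPM in Nu-NB and 175 to 697 CPM in PDOXs, and OPC markers to 17.7 and 85.9 to 378 CPM. Cycling markers stood at 68.1 and 125 to 862 CPM, while for astrocyte markers Nu-NB (1168 CPM) lay inside the PDOX range (193 to 1518 CPM). Of the 692 Nu-NB cells, 619 lay in 1 microglia-like sub-cluster, which held 244 cells over the 7 PDOXs. Their part in these values was not tested. An exact permutation of 1 sample against 7 cannot go below p = 0.125.

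**Figure D3:**
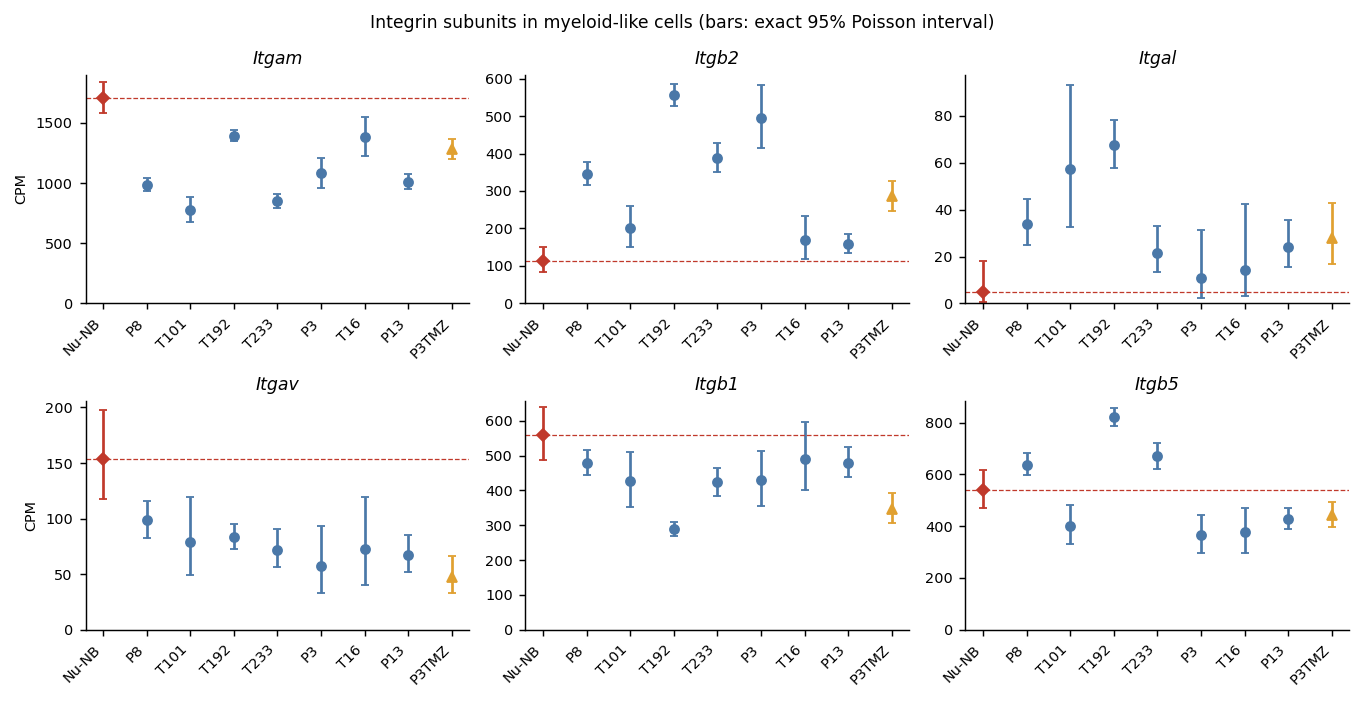
Levels of 6 subunits (CPM) in myeloid-like cells of every sample, with a dashed line at the Nu-NB value and with exact 95% Poisson intervals as bars that cover counting error only, each panel with its own axis. Itgam and Itgav are highest in Nu-NB, and Itgb2 and Itgal are lowest there, next to PDOXs that spread several-fold for Itgal.

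In the other classes 0 subunits were called, and every class had 0% of its genes called by edgeR. In endothelial-like cells, Itga6 stood at 1012 CPM in Nu-NB, from 17 UMIs in 35 cells, and from 116 (P3) through 142 to 442 CPM (P8) in PDOXs. The groups did not fill the same clusters: all 35 Nu-NB cells lay in the cluster with Slco1a4 and Abcb1a among its top genes, and 0 in the one with Apln and Kdr, which held 157 of 213 cells of P3. For Itga6, all 7 PDOXs were below Nu-NB, with a log2 fold change of -1.37 ± 0.67 (SE; edgeR adjusted p = 0.386). P8, the highest PDOX, was sorted by the same method as Nu-NB, and the part of that method was not tested. Itga1 and Itgav were also below Nu-NB in all 7, from 7 and 1 UMIs in Nu-NB. The fitted log2 fold change of Itga1 took either sign over the settings run (-0.57 to 0.56). The 3 of 7 tested subunits below in every PDOX stand beside 37.3% of all 6248 genes, and 0 of the 7 beside 30.9% that were above Nu-NB in every PDOX. At an unadjusted p under 0.05 there were 850 genes (13.6%), and DESeq2 called 0. Itgb1 was at 1131 CPM in Nu-NB, inside the PDOX range, and its log2 fold change was 0.90 ± 0.57 (SE; edgeR adjusted p = 0.467). Itga4 had 0 UMIs in Nu-NB, which allows up to 179 CPM, so only P13 and T16 lay above that bound.

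In mural-like cells Nu-NB gave 12 cells and 6 UMIs each of Itgb1 and Itga1 (1164 CPM). All 6 PDOXs were above Nu-NB for Itgb1, T192 with 1165 CPM only just, and all 6 were below it for Itga1. The log2 fold changes were 1.45 ± 0.81 for Itgb1 (SE; edgeR adjusted p = 0.322) and 0.07 ± 0.85 for Itga1 (SE; adjusted p = 0.953). Of the 481 genes tested, 29.9% were above Nu-NB in every PDOX and 31.8% below. At an unadjusted p under 0.05 there were 86 genes (17.9%), and DESeq2 called 0. For Itga1, TMM scaling put the fitted change above 0 while the CPM of every PDOX was lower, and DESeq2 gave -0.33.

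In astrocyte-like cells Nu-NB had 858 cells and was better measured. Itga6 was at 207 CPM there and from 36.0 (T101) through 114 to 300.03 CPM (P8) in PDOXs, P8 alone being above Nu-NB (log2 fold change -0.54 ± 0.56, SE; edgeR adjusted p = 0.735). P8 and Nu-NB, both sorted by flow cytometry, thus held the highest values, and the next PDOX was at 129 CPM. The part of the separation method was not tested. Itgb1 was at 213 CPM in Nu-NB and at 172 to 721 CPM in PDOXs. Itgb2 had 0 UMIs in Nu-NB, which allows up to 5.14 CPM, and 26 in PDOXs, 13 of them in T192, where the myeloid markers summed to 6003 CPM against 631 CPM in Nu-NB. With an unadjusted p of 0.0399 from edgeR (adjusted p = 0.437), Itgb2 was the 1 subunit of 6 tested under 0.05 in this class, beside 639 of 5784 genes (11%). DESeq2 called 1 gene (0.0173%). Every PDOX was above Nu-NB for 14.2% of the genes and below it for 19.8%, and for 0 of the 6 subunits either way.

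Of 16 other integrin subunits, 5 were tested in myeloid-like cells, with a median log2 fold change of 1.63 (0.81 with the 1 gene at 0 UMIs in Nu-NB set at the bound of 3 UMIs) beside 0.06 over all 9530 genes, and 0 were called by edgeR. Itgax (CD11c), a further β2 partner, led them: it was at 27.8 CPM in Nu-NB, from 11 UMIs, and at 41.9 to 631 CPM in PDOXs, a mean of 330 ± 221 (SD, n = 7). Its log2 fold change was 3.82 ± 1.42 (SE; edgeR adjusted p = 0.175), and DESeq2 called it with an adjusted p of 0.00535. It was above Nu-NB in 7 of 7 PDOXs, as were 17% of all genes tested. Genes named here and below from the 3 lists were picked among those with Nu-NB outside the PDOX range. Their counts of 7 of 7 or 6 of 6 follow from that choice and are no separate result. In astrocyte-like cells Itgb8, a partner of αv, was at 336 CPM in Nu-NB and 270 ± 33.0 CPM in PDOXs (SD, n = 6), lower in 6 of 6 (edgeR adjusted p = 0.772).

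Of 27 integrin ligands, 19 were tested in myeloid-like cells, where 15 had positive and 4 negative log2 fold changes, beside 52.4% positive of all 9530 genes. Their median was 1.49, or 0.84 with the 4 ligands at 0 UMIs in Nu-NB set at their bound. Spp1 (osteopontin), which binds αv integrins, was at 20.2 CPM in Nu-NB, from 8 UMIs, and at 1443 to 13209 CPM in PDOXs. DESeq2 called it, and edgeR gave a log2 fold change of 8.56 ± 1.58 (SE; adjusted p = 0.0792). Fn1 (fibronectin) had 0 UMIs in Nu-NB, which allows up to 7.57 CPM, and 116 to 771 CPM in PDOXs (edgeR adjusted p = 0.0792), and DESeq2 called it with an adjusted p of 0.000306. Icam1, the counter-receptor of the β2 integrins, was at 45.4 CPM in Nu-NB and 170 ± 98.0 CPM in PDOXs (SD, n = 7; edgeR adjusted p = 0.173). Mfge8, a bridge between αv integrins and phosphatidylserine, was at 75.7 CPM in Nu-NB and 17.9 to 38.7 CPM in PDOXs, below in 7 of 7 (edgeR adjusted p = 0.175). Of the 25 adaptors of the adhesion complex, 22 were tested there, 12 with positive and 10 with negative values and a median of 0.06. Actn1 (α-actinin) was at 111 CPM in Nu-NB and 24.1 ± 12.4 CPM in PDOXs (SD, n = 7; edgeR adjusted p = 0.104), and Tln2, a talin, at 98.4 and 37.5 ± 11.01 CPM (SD, n = 7; adjusted p = 0.158). By the choice of named genes, Ilk (integrin-linked kinase) and Rap1b, which activates integrins, were above Nu-NB in 7 of 7. Their means were 95.4 and 211 CPM against 58.0 and 174 CPM. Tns1 was below in 7 of 7 by the same choice (63.9 against 116 CPM).

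In endothelial-like cells 15 of 19 tested adaptors and 16 of 17 tested ligands had positive values, beside 65.6% of all 6248 genes, and 0 were called. The medians were 1.61 and 4.01 beside 0.66, but 5 of the adaptors, 8 of the ligands and 1599 of all genes had 0 UMIs in Nu-NB. With those at the bound that 3 UMIs set, the medians were 0.25 and 0.54 beside -0.38, and of the genes with UMIs in Nu-NB, 10 of 14 adaptors and 8 of 9 ligands were positive, beside 2502 of 4649. Ligands such as Nid1 (nidogen; 32.7 to 409.5 CPM in PDOXs) and Vcam1 (55.6 to 958 CPM) had 0 UMIs in Nu-NB, which allows up to 179 CPM, inside both ranges. Actn1 and Vcl also had 0 UMIs in Nu-NB, and their highest PDOX values (111 and 85.1 CPM) lay under that bound, so no direction can be given. Lims1 was at 98.03 to 389 CPM in PDOXs and at 59.5 CPM, from 1 UMI, in Nu-NB. Pxn, Tns1 and Parvb were below in 7 of 7, each resting on 3 to 5 UMIs in Nu-NB. In astrocyte-like cells 14 adaptors and 10 ligands were tested, with medians of 0.32 and 0.57 beside 0.03 over all genes. Ilk was at 25.7 CPM in Nu-NB and 81.4 ± 34.5 CPM in PDOXs (SD, n = 6; edgeR adjusted p = 0.404), and Rap1a at 36.0 and 81.3 ± 14.9 CPM (SD, n = 6; adjusted p = 0.460). Mfge8 was at 1226 and 860 ± 362 CPM (SD, n = 6), lower in 6 of 6 (edgeR adjusted p = 0.761). In mural-like cells 3 adaptors and 9 ligands were tested. Col4a2, a basement membrane collagen, was at 1523 ± 765 CPM in PDOXs (SD, n = 6) and 388 CPM, from 2 UMIs, in Nu-NB (edgeR adjusted p = 0.271). Lamc1 was at 275 CPM in PDOXs and 1164 CPM, from 6 UMIs, in Nu-NB (edgeR adjusted p = 0.313).

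Within the myeloid-like class, 12 sub-clusters, again formed without integrin genes, differed in their subunits. Microglia-like sub-cluster 0, of which 619 of 891 cells were from Nu-NB, had Itgam at 1692 CPM and Itgb2 at 124 CPM. Microglia-like sub-cluster 6 (361 cells, 5 from Nu-NB) had Itgam at 1208 CPM and Itgb2 at 108 CPM. In PDOXs with at least 10 cells of these sub-clusters, Itgam was above the other myeloid-like cells of the same sample in 3 of 3 and 6 of 6, and Itgb2 was below in 3 of 3 and 6 of 6. The activated microglia-like sub-clusters 2 and 3, led by Apoe, Spp1 or Cst7, had Itgam at 781 and 932 CPM and Itgb2 at 436 and 365 CPM, all pooled over samples. Within samples Itgb2 was above the other cells in 3 of 5 and 3 of 7 PDOXs and Itgam in 1 of 5 and 3 of 7, so that these sub-clusters had no constant direction. Sub-cluster 1, led by Tnf and Cxcl2, had Itgb2 at 452 CPM and was above the other cells in 5 of 6 PDOXs for Itgb2 and Itgal. Higher Itgam with lower Itgb2 than in the other myeloid-like cells was seen in every PDOX compared for sub-clusters 0 and 6, both named from homeostatic microglial genes although 6 was led by Adamts1 and the early response genes Klf2, Egr1 and Jun, and also for sub-cluster 5, led by Tnf and Ptgs2 (3 of 3). Within sub-cluster 0 alone, Itgam was at 1844 CPM in Nu-NB and 1414 CPM in PDOXs (644 and 232 UMIs), and Itgb2 at 112 and 140 CPM (39 and 23 UMIs), with pooled cells and no test.

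Sub-cluster 4, which stayed unnamed, differed from the microglia-like ones in its α subunits. Its top genes were Ly6c2, Igkc, S100a4, Ccr2 and S100a8, which include a B cell and a neutrophil transcript, and Ccl5 was among the first 10. It held 465 cells, 302 of them from T101. Itga4 was at 120 CPM (45 UMIs) and Itgal at 90.7 CPM (34 UMIs), each above the other myeloid-like cells in 4 of 4 PDOXs, and Itgam, at 659 CPM, was below in 4 of 4. Itgb5, Itgav and Itga6 were below in 4 of 4 as well. T101, which gave most of these cells, had the highest Itga4 and the lowest Itgam and Itga6 of the PDOXs in the myeloid-like class as a whole. Sub-cluster 10, border-associated macrophage-like (104 cells), had the highest pooled Itgb1 of the 12 (702 CPM), though it was above the other myeloid-like cells in only 1 of 2 PDOXs, and Itgam at 460 CPM. Sub-cluster 5, led by Tnf and Ptgs2 and from T192 in 327 of 396 cells, had the highest Itgam (1918 CPM) and the lowest Itgb1 (238 CPM), and T192 was also the PDOX with the highest Itgam and lowest Itgb1 in the class as a whole. Sub-clusters 7 and 9 were led by genes of other classes, and leaving both out, an alternative added after seeing the data, left 0 subunits called. Sub-cluster 8, led by ribosomal genes, was P8 in 173 of 176 cells.

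**Figure D4:**
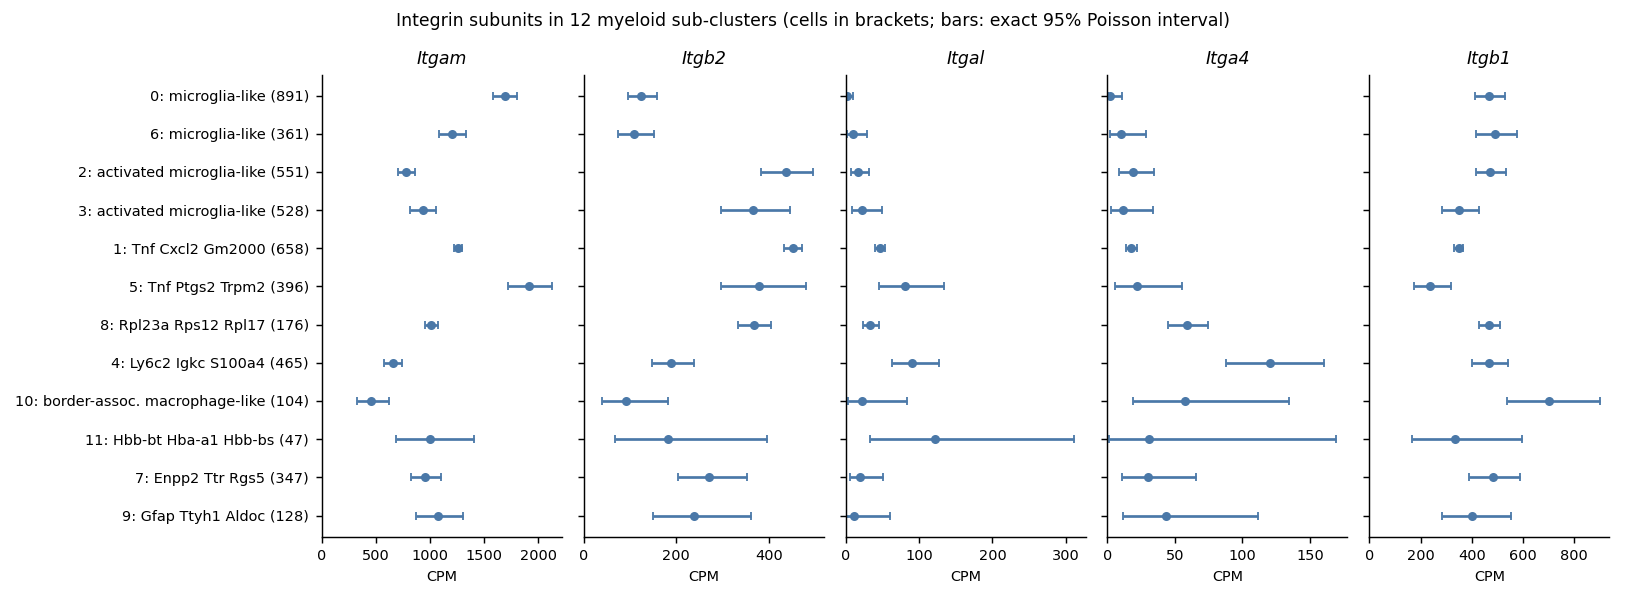
Levels of 5 subunits in the sub-clusters of myeloid-like cells (CPM, pooled over samples, each panel with its own axis), with exact 95% Poisson intervals as bars that cover counting error only, for Itgam, Itgb2, Itgal, Itga4 and Itgb1. Rows carry the name or leading genes and the number of cells. Sub-clusters 0 and 6 combine high Itgam with low Itgb2, and sub-cluster 4 has the highest Itga4, 120 CPM.

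Partner subunits were set side by side in the same cells at equal depth, with no test. In myeloid-like cells of Nu-NB, 9.71% of Itgam-positive cells carried Itgb2 against 3.95% of the others (17 of 175 and 6 of 152 cells). The share was higher in Itgam-positive cells in 5 of 7 PDOXs, with 22.1% against 16.8% in T192 and 4.73% against 7.76% in P13. Itgb1 was more frequent in Itga1-positive mural-like cells in 5 of 5 PDOXs, with 78.9% against 61.3% of the others in P13 and 62.5% against 56.3% in P8, while T192 had 1 and P3 had 4 Itga1-positive cells. In endothelial-like cells the same pair was more frequent in 1 of 7 PDOXs (P3, 37.5% against 34.7%) and less frequent in the other 6, with 39.2% against 41.7% in P13. As a description across 35 class-by-sample sums from 8 classes, the genes most like Itgam in log2(CPM + 10) were Hpgds (Pearson r = 0.971), Siglech (0.970) and Ncf1 (0.969). Those most like Itgb2 were Ctsa (0.971), Cd52 (0.968) and Lat2 (0.965), and those most like Itgb5 were Lair1 (0.912), Fcgr1 (0.910) and Slc15a3 (0.904). Itga1 went with Gjc1 (0.961), Col4a1 (0.943) and Ehd2 (0.938), and Itgb1, among others, with Lama4 (0.904) and Tgfb1i1 (0.885). Itga4 went with Eva1b (0.885), Itgal with Ms4a6c (0.882), Itgav with Specc1 (0.820), Itgb3 with Ivns1abp (0.749) and Itga6 with Gpr146 (0.730). Among the subunits themselves, Itgb2 stood at 0.89 with Itgb5, 0.87 with Itgam and 0.85 with Itgal, and Itgb1 at 0.85 with Itga1 and 0.82 with Itga4. Itga6 was at or under 0.34 with every other subunit. The points share libraries and depth, and each class enters with several samples.

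P3 after temozolomide was compared with P3, 1 library on either side, so differences are of these libraries and have no replicate check. The cells of the 2 libraries also lay in different clusters. Of the myeloid-like cells, microglia-like sub-clusters 0 and 6 held 28 and 68 of 333 after temozolomide and 4 and 18 of 270 in P3, and sub-cluster 7, led by Enpp2 and Ttr, held 31 and 109. Of the endothelial-like cells, the cluster led by Scgb3a1, with Apln and Kdr among its top genes, held 56 of 128 after temozolomide and 157 of 213 in P3. The part of these shifts in the ratios was not tested. In 13 pairs of subunit and class both libraries were above 3 UMIs, and the exact counting interval of the ratio did not hold 1 in 5 of those 13. Itgb2 in myeloid-like cells stood at 286 CPM after temozolomide and 494 CPM without (ratio 0.579, 0.464 to 0.723). Itgam was at 1280.4 and 1080.2 CPM (1.19, 1.04 to 1.35) and Itga6 at 177 and 104 CPM (1.71, 1.13 to 2.65). Itgb5 (1.21, 0.969 to 1.53) and Itgb1 (0.808, 0.648 to 1.01) had intervals that held 1, although in cells with at least 500 genes that of Itgb5 did not (1.33, 1.02 to 1.74) and 6 of 10 pairs did not hold it. In endothelial-like cells Itgb1 was at 710.03 and 1133 CPM (0.627, 0.484 to 0.806) and Itga4 at 48.4 and 157 CPM from 6 and 31 UMIs (0.309, 0.105 to 0.751), while Itga1 (0.986) and Itga6 (1.11) had intervals that held 1. The 2 mural-like pairs, Itgb1 (0.764) and Itga1 (0.794), held 1 as well. The values after temozolomide lay within the range of the 7 untreated PDOXs for Itgb2, Itgam and Itga6 in myeloid-like cells and for Itgb1 and Itga4 in endothelial-like cells. After thinning to 500 UMIs, the interval did not hold 1 for Itgb2 alone (0.403) among 6 remaining pairs. The ratio in myeloid-like cells turned to 0.817 for Itgam and to 1.48 for Itgb1, and that of Itga1 in endothelial-like cells to 1.31.

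**Figure D5:**
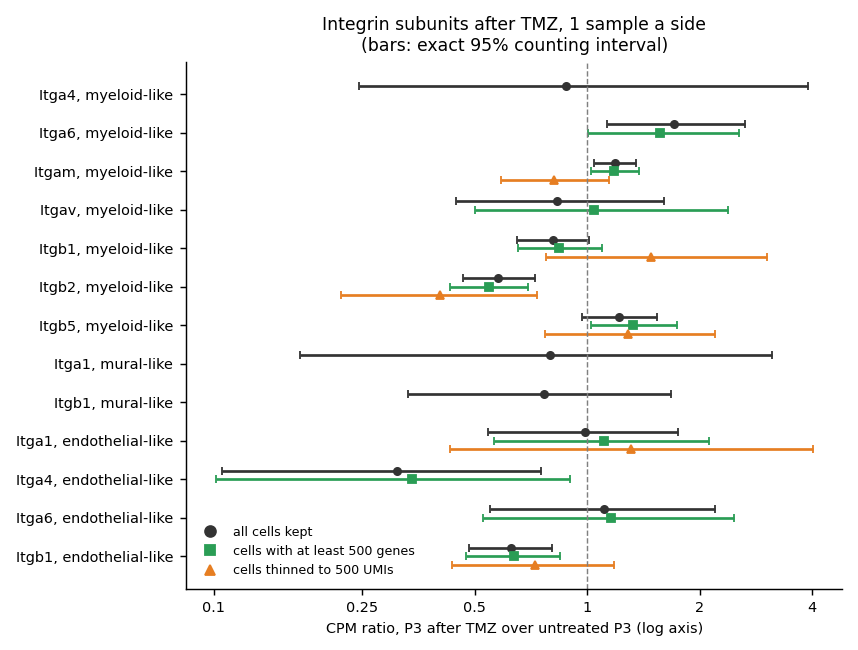
Ratio of CPM after temozolomide to CPM in P3 (log axis) for the 13 pairs of subunit and class with more than 3 UMIs in both libraries, where bars are exact 95% counting intervals, the dashed line marks 1, and squares and triangles repeat the ratio in cells with at least 500 genes and after thinning to 500 UMIs. The intervals of Itgb2 in myeloid-like cells and of Itgb1 and Itga4 in endothelial-like cells lie below 1, and those of Itgam and Itga6 in myeloid-like cells lie above it.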

How the data were processed

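Per the labels and the study's methods, mouse cells were isolated from PDOXs and 1 nude brain, captured by Drop-seq, demultiplexed with bcl2fastq 2.0 and aligned with STAR to GRCm38/mm10 (the STAR version is not given in the sources used here). The authors deposited raw UMI counts per gene symbol and cell barcode for each of the 9 samples. The 12580 symbols listed in every sample form the total for CPM, because Nu-NB and P8 list another set of symbols than the other samples.

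Barcodes entered with 200 or more genes and a mitochondrial share of 30% or less, and the top 5% of doublet scores (scrublet, through scanpy 1.11.5, Python 3.11.15) were left out in each sample. Counts were clustered without integrin and mitochondrial genes (2000 variable genes, 30 components, 20 neighbors, leidenalg 0.10.2 at resolution 1). Clusters were named from marker lists, and clusters that met no list, or several with a lead in mean log2 marker level under 1.5, were not used. The choroid plexus-like and ciliated ependymal-like clusters were kept by that lead although they also met the myeloid list. UMIs were summed per class and sample with at least 10 cells and tested with edgeR 4.0.16 (R 4.3.3, TMM, filterByExpr), 7 PDOXs against 1 Nu-NB, with Benjamini-Hochberg adjustment over all genes tested. DESeq2 1.42.0 was an alternative. Residual spread came from the PDOXs, and Nu-NB was assumed to vary like them. T192 and T233 were treated as separate samples, so p-values measure the spread between these samples. P3TMZ was in no fit.

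On simulated data with the myeloid-like means, 4% of 4-fold and 18% of 8-fold changes among 9530 genes were recovered at these thresholds, 0 of either in endothelial-like or mural-like cells, and 7% and 51% in astrocyte-like cells (5784 genes), which bounds what 1 Nu-NB library can show. Shares were taken after thinning to 500 UMIs (300 and 800 as alternatives), leaving out shallower cells. Intervals (exact binomial and Poisson, scipy 1.17.1, 95%) and the limit of 3 counts that 0 UMIs allow cover counting error only. Named list genes had at least 50 CPM in a group and a Nu-NB value outside the PDOX range, up to 3 per direction with the largest log2 fold change. Other alternatives were RLE scaling, no low-count filter, cells with at least 500 genes, 10% of cells left out as doublets, resolution 2, leaving out each PDOX, P8 alone, T192 and T233 summed as 1 sample, thinning before summing, and an adjusted p of 0.05. The subunits and lists were chosen with earlier results of these data known. One gene among those most like a subunit is not reported here.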

Additional observations from a re-analysis of the deposited data

Results flagged for a closer look

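Some PDOXs stood apart from the others for a subunit in a class, by a gap to the nearest PDOX that was large against the whole range. Of 60 groups of at least 4 PDOXs, 13 had such a sample with more than 3 UMIs and 6 with at most 3 UMIs. How often such a gap arises by chance in counts like these was not measured, and the highest and lowest of low counts are not independent of depth.

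T192 was the sample most often apart. It was highest for Itgam in OPC-like cells (178 CPM, 4 UMIs) and endothelial-like cells (69.6 CPM), for Itgb2 in astrocyte-like cells (68.2 CPM) and for Itgb5 in OPC-like cells (178 CPM, 4 UMIs) and astrocyte-like cells (199 CPM). T233 was highest in endothelial-like cells for Itgb2 (43.6 CPM) and Itgb5 (196 CPM). The myeloid markers were also highest of the PDOXs in the OPC-like (7473 CPM) and astrocyte-like cells (6003 CPM) of T192 and in the endothelial-like cells of T233 (5620.4 CPM), and second highest in the endothelial-like cells of T192 (1983 CPM). Their part in these values was not tested.

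In myeloid-like cells themselves, T192 was lowest for Itgb1 (289 CPM). In mural-like cells P13 was highest for Itgav (72.2 CPM) and Itga6 (129.57 CPM), and in choroid plexus-like cells it was highest for Itga1 (54.97 CPM). Itgb1 in astrocyte-like cells was highest in T101 (721 CPM, 20 UMIs in 45 cells). Itga6 there was highest in P8 (300.03 CPM), the PDOX sorted by the same method as Nu-NB.

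Itgb1 was above Nu-NB in every PDOX in mural-like cells (mean 2112 CPM) and below it in every PDOX in myeloid-like cells (mean 431 CPM). The difference between the classes was not tested, and the mural-like Nu-NB value rests on 6 UMIs.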

How the results depend on the processing

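Of 359 log2 fold changes of the subunits under alternatives, 336 kept their direction, 23 reversed and 0 passed the thresholds, the lowest adjusted p being 0.0557 (Itgb2, myeloid-like, DESeq2). Subunits called stayed at 0 under every alternative run, including the added one without sub-clusters led by other classes. In myeloid-like cells the number of all genes called, 0 by edgeR, was 249 with DESeq2, 2 in cells with at least 500 genes, 1 without a low-count filter, 1 at resolution 2, 1 at an adjusted p of 0.05, and 0 to 49 when each PDOX was left out, 49 without P8. In astrocyte-like cells it was 1 with DESeq2, 24 without a filter, 4 after thinning and 0 to 14 when each PDOX was left out, 14 without P8. The cause was not tested.

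Reversed log2 fold changes in myeloid-like cells were those of Itga4 (-0.13 with at least 500 genes, -0.17 thinned), Itga6 (0.18 with at least 500 genes, 0.22 with P8 alone) and Itgb3 (0.56 with at least 500 genes). In endothelial-like cells they were Itga1 (0.56 with 10% left out as doublets, -0.43 to 0.026 leaving out each PDOX) and Itgb1 (-0.081 with P8 alone). In astrocyte-like cells they were Itgav (-0.089 with at least 500 genes, -0.093 thinned, -0.22 with P8 alone, -0.18 to 0.23 leaving out each PDOX), Itgb5 (-0.17 with P8 alone, -0.21 to 0.42 leaving out each PDOX), Itgam (-1.18) and Itga6 (0.53), both with P8 alone. In mural-like cells it was Itga1 (-0.33 with DESeq2, -0.54 with RLE, -0.39 at resolution 2, -0.048 with P8 alone, -0.35 to 0.66 leaving out each PDOX). After thinning, the ratios after temozolomide in myeloid-like cells were 0.817 for Itgam and 1.48 for Itgb1, and 1 pair did not hold 1. Of 100 shares at 300 or 800 UMIs, 28 moved by more than 1 SD between PDOXs.

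No paired analysis was possible because the labels give no replicate numbers shared between groups and Nu-NB is 1 sample. Mural-like cells with at least 500 genes, with 10% left out as doublets or after thinning, and endothelial-like cells with at least 500 genes, gave no value, since under 10 Nu-NB cells remained. T233 had under 10 mural-like cells, so its alternatives do not apply there. Depth limits Itgal, Itgb3 and Itga1 in myeloid-like cells and every Nu-NB value in mural-like and endothelial-like cells.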
